A study of Rattus norvegicus with 6 samples.

Results

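Genes of spleen mesenchyme and stroma, 7 of the 17321 genes counted, were followed in islets isolated from fetal rats. They were picked by symbol: Tlx1, Nkx2-5, Ccl21, Shisa3, Tcf21, Lyve1 and Stab2, and all 7 had a row in each count file and passed the filter on low counts. The set had been put together as a probe for spleen tissue lying next to the pancreas, with gene results of the same comparison already known. Differences between the treatment groups are therefore described here and support nothing. The animals were Sprague Dawley rats at gestational day 22. High glucose libraries came from left-horn fetuses given a 48 h glucose infusion (4 mg/min) starting on day 20, and control libraries from normoglycemic right-horn fetuses carried by the same dams. Islets of 2 pooled fetal pancreata were digested out with collagenase, picked by hand and rested for 24 h in RPMI with 5 mM glucose before poly(A) RNA was sequenced, giving 3 libraries per group in 3 dam pairs. The 3 libraries of a group come from different dams, and the main fit takes out the level of each dam. Its treatment p-values therefore set the difference within dams against its spread over the 3 dam pairs. Left horn and glucose cannot be told apart.

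The spleen arises in the dorsal mesogastrium from the same sheet of mesenchyme that covers the dorsal pancreas. Tlx1 (also called Hox11) is a homeobox factor without which the spleen primordium is lost, and Nkx2-5 and Tcf21 are transcription factors that also act in that primordium. Nkx2-5 is best known from the heart and Tcf21 from the mesenchyme of many organs, so neither is peculiar to spleen. Ccl21 is the chemokine with which lymphoid stroma and lymphatic vessels draw in CCR7-bearing lymphocytes and dendritic cells. Lyve1 and Stab2 encode hyaluronan receptors of lymphatic and sinusoidal endothelium, and Lyve1 is also made by some tissue macrophages. Shisa3 encodes a membrane protein that holds back Wnt and FGF receptors inside the cell.

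Total counts per library lay between 18077841 and 30993532. The 15 endocrine genes listed as islet markers summed to 7531 to 28894 CPM (counts scaled to library size), so islet genes were expressed in each library. Titles and deposited alignments disagree on which horn a library came from in 6 of 6 cases. Groups follow the treatment labels, and every direction of high glucose against control below would turn round under the other naming. Each library mixed many cell types, so fewer cells of a type and less RNA per cell cannot be told apart.

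Tlx1, the spleen-determining factor (rn6 chromosome 1, 264893162 to 264899423), was present in every library. It measured 15.2, 16.5 and 12.7 CPM in the control libraries of pairs 1, 2 and 3 (524, 266 and 371 counts) and 5.88, 6.30 and 3.83 CPM in the high glucose libraries. All 3 high glucose libraries lay below all 3 controls, and the controls differed among themselves by no more than 1.30-fold. Group means were 14.8 ± 1.93 and 5.34 ± 1.32 CPM (SD, n = 3). The fitted log2 difference, high glucose minus control, was -1.49 (SE 0.27), and the pairs gave -1.36, -1.37 and -1.71. Tlx1 was the only member whose groups did not overlap. Among all 12276 genes tested, 2.1% were lower in high glucose without overlap.

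Nkx2-5 (chromosome 10, 16635989 to 16638758) did not repeat that pattern. Its control libraries measured 9.62, 6.19 and 7.54 CPM and its high glucose libraries 1.48, 11.7 and 3.86 CPM. The highest of the 6 values was thus the high glucose library of pair 2, whose difference of 0.91 on the log2 scale ran against those of pairs 1 (-2.64) and 3 (-0.95). The fitted log2 difference was -0.90 (SE 0.74).

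Tcf21 (chromosome 1, 23906717 to 23909568) was highest in the same dam in both groups. It measured 48.4, 85.0 and 37.0 CPM in control and 39.0, 90.8 and 19.1 CPM in high glucose. Both libraries of pair 2 stood above the other 4, and both libraries of pair 3 stood at the bottom. Its log2 differences were -0.31, 0.09 and -0.95 in pairs 1, 2 and 3, with a fitted value of -0.39 (SE 0.23).

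**Figure D1:**
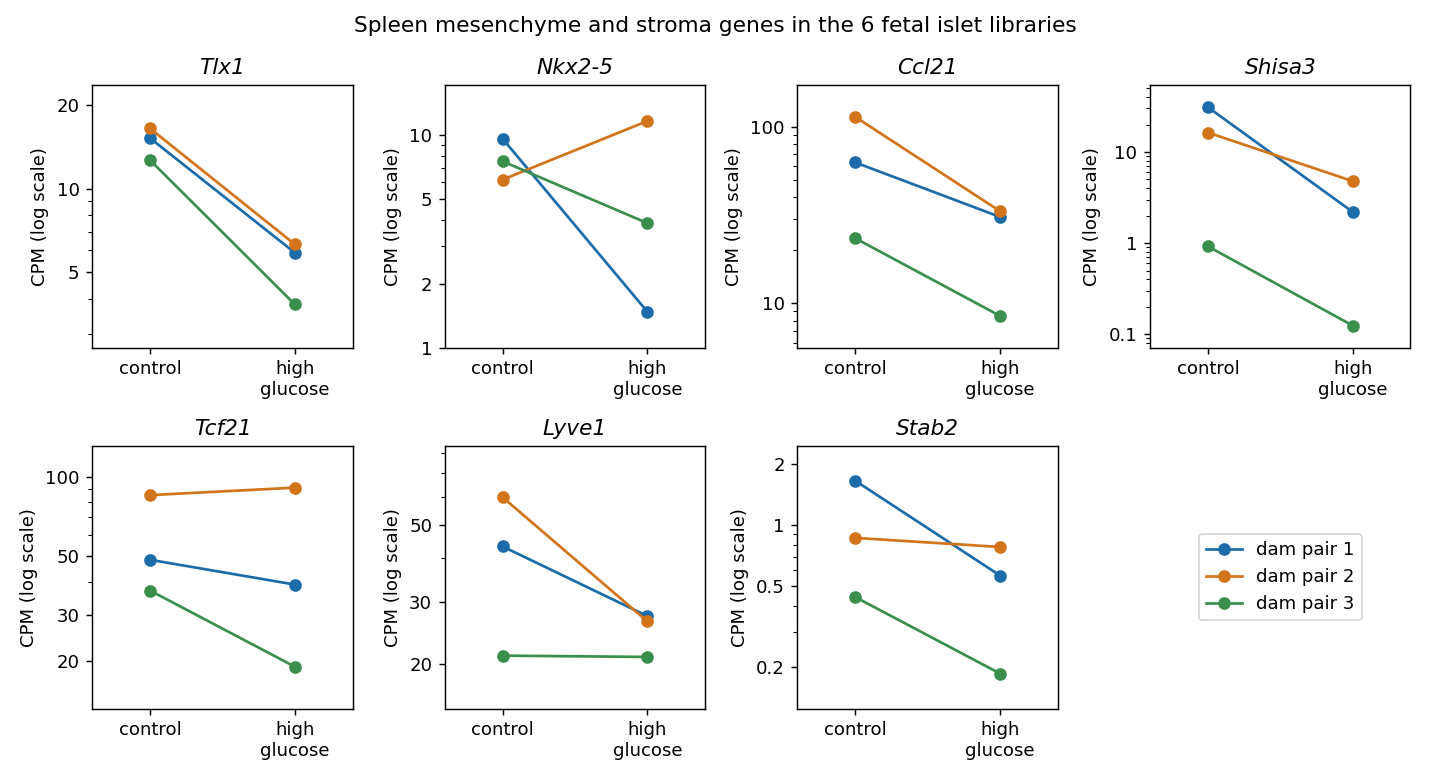
CPM (log axis, own range in each panel) of the 7 genes in the control and the high glucose library of each dam pair. Each point is a library and each line joins the libraries of a dam; Tlx1 alone has all high glucose points below all control points, and the lines of Nkx2-5 and Tcf21 go up in pair 2.

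Ccl21, the lymphoid chemokine (chromosome 5, 58197678 to 58198782), measured 63.0, 114 and 23.4 CPM in control and 30.9, 33.3 and 8.50 CPM in high glucose. Each dam had less in its high glucose library, yet the groups overlapped because the control of pair 3 lay below the high glucose libraries of pairs 1 and 2. The pairs gave log2 differences of -1.02, -1.77 and -1.45, and the fit gave -1.42 (SE 0.21). In the mouse this chemokine has near-identical copies. The mapping quality minimum drops read pairs shared between such copies, so the level of Ccl21 is uncertain.

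Shisa3 (chromosome 14, 42216653 to 42221225) spread further than any other member. Its counts were 1068, 264 and 27 in control and 70, 98 and 4 in high glucose. On the CPM scale this was 30.9, 16.3 and 0.921 against 2.20, 4.78 and 0.125, a 248-fold span from the highest to the lowest library. Each dam again had less in high glucose, at log2 differences of -3.77, -1.76 and -2.33 (fitted -2.80, SE 0.45). Within the control group alone the span was 33.6-fold, and the control of pair 3 was lower than the high glucose libraries of pairs 1 and 2. Over all 6 libraries the log2 range of Shisa3 was wider than in 99.8% of the genes tested, against 97.0% for Ccl21, 93.2% for Nkx2-5, 91.8% for Stab2, 85.8% for Tcf21, 83.1% for Tlx1 and 67.9% for Lyve1.

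Lyve1 (chromosome 1, 175663266 to 175676699) measured 43.3, 59.8 and 21.1 CPM in control and 27.4, 26.4 and 20.9 CPM in high glucose. Pair 3 was flat (log2 difference -0.01), while pairs 1 and 2 differed by -0.66 and -1.18. The high glucose libraries lay within 1.31-fold of each other and the fit gave -0.62 (SE 0.25). Stab2 (chromosome 7, 27369853 to 27552078), the scavenger receptor of sinusoids, was barely detected, with 57, 14 and 13 counts in control and 18, 16 and 6 in high glucose. Its fitted log2 difference was -0.98 (SE 0.64), and the pairs gave -1.43, -0.14 and -0.99.

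**Figure D2:**
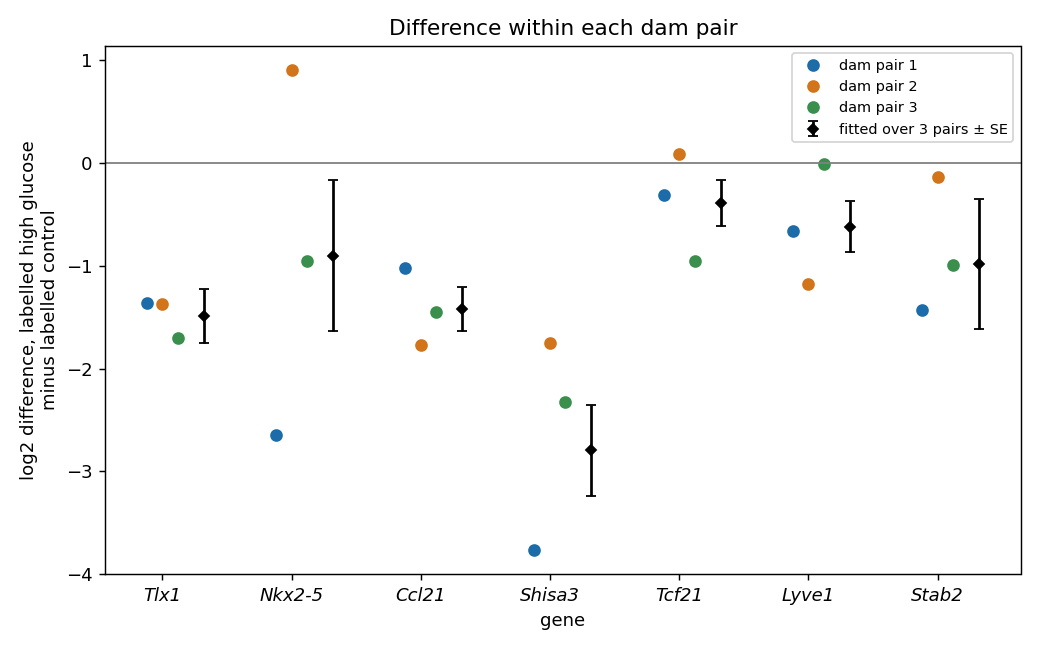
Log2 difference (labelled high glucose minus labelled control) of each gene in each dam pair, coloured points, with the edgeR fit over the 3 pairs and its standard error, black diamonds. The 3 points of Tlx1 lie between -1.71 and -1.36, while those of Nkx2-5 run from -2.64 to 0.91.

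Across the set, 5 of 7 genes were lower in high glucose in all 3 pairs (71.4%), against 11.3% of all genes tested. The exceptions were Nkx2-5 and Tcf21, which were each higher in pair 2. Among the 5, Lyve1 in pair 3 (-0.01) and Stab2 in pair 2 (-0.14) were lower only slightly. The median fitted log2 difference was -0.98 for the 7 genes and 0.00 for all genes tested. It was -1.36, -1.18 and -0.99 in the separate pairs, and -0.64 with pair 1 left out. In the edgeR quasi-likelihood fit over all genes, 0 of the 7 had an adjusted p below 0.05, where 2 genes (0.0163%) were called. At an unadjusted p below 0.05 there were 4 of 7 (Tlx1, Ccl21, Shisa3 and Lyve1) beside 4.82% of all genes. DESeq2 called Tlx1, Ccl21 and Shisa3 among its 106 genes (0.863%). The genes had been chosen on this contrast, so these counts are not read further.

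Levels corrected for transcript length (TPM) put Ccl21 at 82.5 ± 61.4 and Tcf21 at 65.4 ± 26.2 at the top (mean ± SD over 6 libraries). Each of these exceeded the other in 3 libraries, so their order is not settled. Lyve1 followed at 16.9 ± 7.04 TPM, below Tcf21 and above Tlx1 in all 6 libraries. Tlx1 (7.88 ± 4.24 TPM), Nkx2-5 (7.88 ± 4.27) and Shisa3 (6.90 ± 10.2) could not be ranked, since each neighbour in that order was the higher in only 4 of 6 libraries. Stab2 came last at 0.161 ± 0.128 TPM, lower than Shisa3 in all 6. The spleen-determining factor was thus a gene of modest level, above only 29.8% of the genes tested by mean TPM, whereas Ccl21 stood above 83.5%.

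The start regions of the 5 genes with a negative log2 difference in each dam pair are shown. That difference was slight for Lyve1 in pair 3 (-0.01) and for Stab2 in pair 2 (-0.14). The regions are the 250 bases before the RefSeq start in build GRCr8, read 5′ to 3′ on the gene's strand. RefSeq held such a region for all 7 members. Capitals mark CANNTG, the E-box to which Tcf21 and other basic helix-loop-helix factors bind, and AAGTG, the core of the site bound by Nkx2-5, searched on both strands.
Tlx1 (chr1:253953947-253954196, plus strand): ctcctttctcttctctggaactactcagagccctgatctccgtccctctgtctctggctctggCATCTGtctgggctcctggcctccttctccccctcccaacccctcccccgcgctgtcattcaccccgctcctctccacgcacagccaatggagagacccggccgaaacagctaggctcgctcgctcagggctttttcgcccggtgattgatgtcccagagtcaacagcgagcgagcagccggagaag
Ccl21 (chr5:61777516-61777765, minus strand): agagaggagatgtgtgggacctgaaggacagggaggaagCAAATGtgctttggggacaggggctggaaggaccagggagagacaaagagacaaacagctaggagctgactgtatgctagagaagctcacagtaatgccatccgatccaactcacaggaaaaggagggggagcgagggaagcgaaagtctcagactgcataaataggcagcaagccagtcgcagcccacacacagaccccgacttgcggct
Shisa3 (chr14:40922136-40922385, minus strand): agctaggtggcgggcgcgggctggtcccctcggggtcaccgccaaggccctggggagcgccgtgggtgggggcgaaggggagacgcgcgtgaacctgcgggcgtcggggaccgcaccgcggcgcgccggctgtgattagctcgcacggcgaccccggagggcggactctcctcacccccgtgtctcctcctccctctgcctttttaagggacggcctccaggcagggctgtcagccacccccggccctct
Lyve1 (chr1:174410978-174411227, minus strand): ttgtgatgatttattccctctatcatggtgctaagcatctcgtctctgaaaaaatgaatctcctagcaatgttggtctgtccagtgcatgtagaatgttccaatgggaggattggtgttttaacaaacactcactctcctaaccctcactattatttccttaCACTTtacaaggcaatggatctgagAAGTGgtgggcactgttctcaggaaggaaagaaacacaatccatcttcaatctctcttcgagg
Stab2 (chr7:23320563-23320812, minus strand): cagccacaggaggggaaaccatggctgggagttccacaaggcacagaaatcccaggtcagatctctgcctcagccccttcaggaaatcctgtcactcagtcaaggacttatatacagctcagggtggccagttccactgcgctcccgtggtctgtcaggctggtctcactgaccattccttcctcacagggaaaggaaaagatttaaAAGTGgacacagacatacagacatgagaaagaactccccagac
Tlx1 and Ccl21 each held 1 E-box, starting 187 and 211 bases before the start, and no AAGTG. Lyve1 held AAGTG at 88 (on the opposite strand) and 63 bases before the start and Stab2 at 43, and neither held an E-box. Shisa3 held no match to either. Over the 33469 regions of this length in the table, 65.5% held an E-box and 40.6% held AAGTG. The windows also differed in base composition, with a G and C content of 62.0% for Tlx1, 54.8% for Ccl21, 74.0% for Shisa3, 41.6% for Lyve1 and 52.4% for Stab2. A match of letters in these windows shows no binding.

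Differences between dams, which had no part in choosing the genes, were tested with treatment kept as a term in the same fit. Over all 3 pairs, each p-value is for any difference among the dams, not for 1 pair against another. This test was added after the data had been seen. Of all genes, 22.8% differed between dams at an edgeR adjusted p below 0.05, and 3 of the 7 did so. Ccl21 (edgeR adjusted p = 0.00312) and Shisa3 (edgeR adjusted p = 0.00379) were among these. Their fitted log2 differences were -2.14 and -4.73 for pair 3 minus pair 2, and -1.66 and -4.68 for pair 3 minus pair 1. Tcf21 (edgeR adjusted p = 0.00785) was also called, with a log2 difference of -1.72 for pair 3 minus pair 2. For Tlx1 the edgeR adjusted p was 0.379, with log2 differences of 0.11 (pair 2 minus pair 1) and -0.43 (pair 3 minus pair 1). With pair 3 left out only Tcf21 of the 7 was called, among 3878 genes in all. With pair 2 left out Ccl21 and Shisa3 were called among 216 genes in all. Without pair 1, Ccl21, Shisa3, Tcf21 and Lyve1 were called among 2187 genes in all. Litter, dissection and library handling cannot be told apart in this comparison.

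Genes with the most similar profile were sought by the root mean square distance between centred log2 CPM profiles over the 6 libraries, among 11772 genes. All genes were measured in the same 6 libraries with the same treatment labels, so near neighbours are a description. The genes nearest to Tlx1 were Tnfrsf11a (RANK, the receptor of the TNF-family ligand RANKL) at 0.25 log2 units, Apol3 at 0.27 and F2rl2 at 0.28. Tnfrsf11a measured 7.39, 9.15 and 4.50 CPM in control and 3.36, 2.98 and 1.43 CPM in high glucose. Its groups did not overlap either, but likeness to the Tlx1 profile was the ground on which Tnfrsf11a was picked. Tnfsf11, the gene of its ligand RANKL, was listed at 0 in all 6 libraries, which need not mean absent RNA.

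Among the other members, Lyve1 came nearest to Tlx1 at 0.55 log2 units (rank 193 of the genes compared), followed by Stab2 at 0.61 (rank 346) and Ccl21 at 0.69 (rank 904). Tcf21 was at 0.76 (rank 2034) and Shisa3 at 1.93 (rank 11668). Nkx2-5, which acts with Tlx1 in the spleen primordium, was at 0.91 (rank 6990). Seen from Ccl21, Stab2 ranked 75, Lyve1 120 and Tcf21 134, with Tlx1 between Lyve1 and Tcf21. Nkx2-5 and Shisa3 were far from Ccl21, at ranks 6878 and 9071. The nearest neighbours of Shisa3 were the class II antigen-presenting genes RT1-Ba (0.63) and RT1-Da (0.70) and the galectin gene Lgals5 (0.73). RT1-Ba measured 27.4, 12.3 and 1.13 CPM in control and 1.92, 2.69 and 0.37 CPM in high glucose, the same order of control libraries as Shisa3. That order follows from picking RT1-Ba for its likeness to Shisa3. The RT1 genes have near-identical copies, so their levels are uncertain.

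Stab2 lay closest to Ifi47, an interferon-induced GTPase (0.17), to the ficolin gene Fcna (0.23) and to Spic (0.25), the transcription factor of red pulp macrophages in the spleen. Spic measured 5.16, 3.03 and 2.01 CPM in control and 1.67, 2.25 and 0.53 CPM in high glucose. Ccl21 was nearest to Kcne5 (0.27), Gbp2 (0.33) and Pcp4l1 (0.34), and Lyve1 to LOC501110 (0.09), the interferon signal transducer Stat2 (0.11) and Ppm1n (0.14). Nkx2-5 lay closest to Eno3 (0.42), Siglec5 (0.46) and Fmo1 (0.46). The 3 nearest genes of each of these 6 members had no gene in common.

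**Figure D3:**
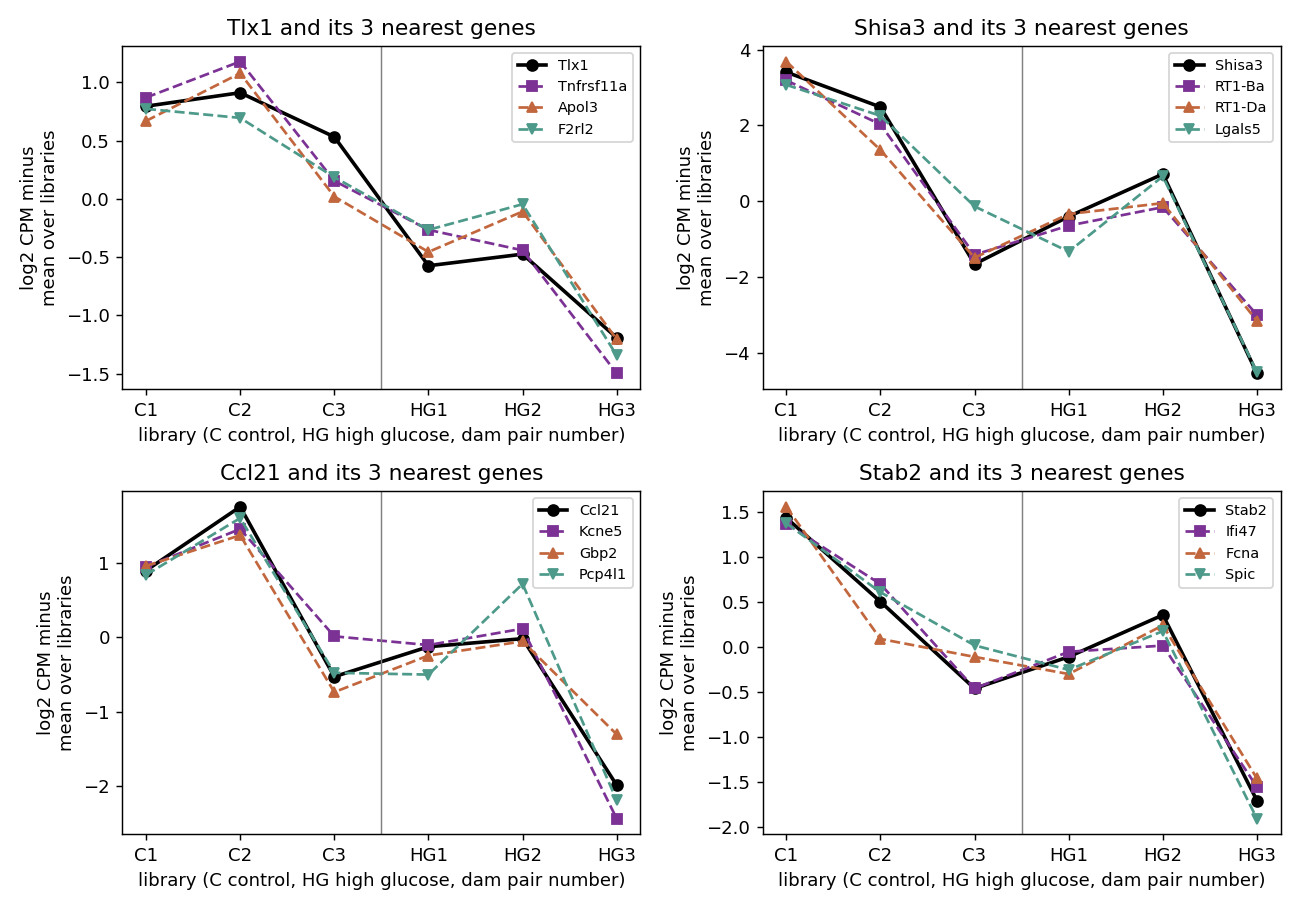
Log2 CPM minus its mean over the 6 libraries for Tlx1, Shisa3, Ccl21 and Stab2 (black) and the 3 nearest genes of each (dashed). Tlx1 separates the 3 control (C) from the 3 high glucose (HG) libraries, while Ccl21 peaks in the control of pair 2 and Shisa3 and Stab2 in that of pair 1.

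Wider lists of stromal, epithelial and blood cell genes were set beside the 7. They were written with earlier results known and are described by counts and medians, with no test. Among 11 tested transcription factors of splenic and splanchnic mesenchyme, 8 are not among the 7 genes. All 8 had fitted log2 differences above 0, between 0.08 and 0.28, with standard errors of 0.18 to 0.45. Of these 8, 0 were lower and 2 were higher in all pairs, so most differed in direction between dams. The 8 include Nr2f2 (fitted log2 difference 0.24) and Meis1 (0.23), the most abundant ones beside Tcf21. Barx1, a factor of stomach mesenchyme that the developing spleen also needs, measured 15.0, 83.1 and 25.6 CPM in control and 19.4, 88.9 and 26.9 in high glucose. Like Tcf21 it peaked in both libraries of pair 2 (it was picked for this after its values were seen). The general mesenchyme and pericyte list had a median of -0.11 over 13 genes, with 1 lower in all pairs, and this became 0.08 and 0.11 without pair 2 or 3 and -0.36 without pair 1. For the mesothelial list the median was 0.20 over 6 genes, with 0 lower in all pairs, and -0.01 without pair 2.

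The lymphoid stroma and white pulp list had a median of -0.15 over 14 tested genes, and 4 were lower in all pairs. Its most abundant genes were Il33, Ltbr (the lymphotoxin receptor) and Cxcl13 (the B cell chemokine of follicles), with fitted log2 differences of 0.57, 0.02 and 0.04. The list median was 0.17 with pair 1 left out, and -0.13 over the 13 tested genes other than Ccl21. Ccl19, the second CCR7 ligand of lymphoid stroma, had 1401, 102 and 7 counts in control and 13, 13 and 14 in high glucose (picked after its values were seen). It shared with Shisa3 the order of the controls, highest in pair 1 and lowest in pair 3.

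For lymphatic endothelium the median over 11 tested genes was -0.21, and 3 were lower in all pairs, Ccl21 and Lyve1 among them. Without pair 2 it was 0.16. Its most abundant gene besides Nr2f2 and Ccl21 was Fxyd6, with a fitted log2 difference of -0.35. Prox1, which sets lymphatic identity, had a fitted log2 difference of 0.15, and Flt4, the receptor of lymphatic growth factors, -0.21 (both picked after their values were seen). For sinusoidal endothelium the median over 8 tested genes was -0.47, and 6 were lower in all pairs, 2 of them being Lyve1 and Stab2. The most abundant others, Ehd3 and the mannose receptor gene Mrc1, had fitted log2 differences of -0.24 and 0.35. Blood vessel endothelium had a median of -0.44 over 14 genes, with 4 lower in all pairs. Its medians were -0.06, -1.22 and -0.08 in pairs 1, 2 and 3, and -0.11 with pair 2 left out.

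**Figure D4:**
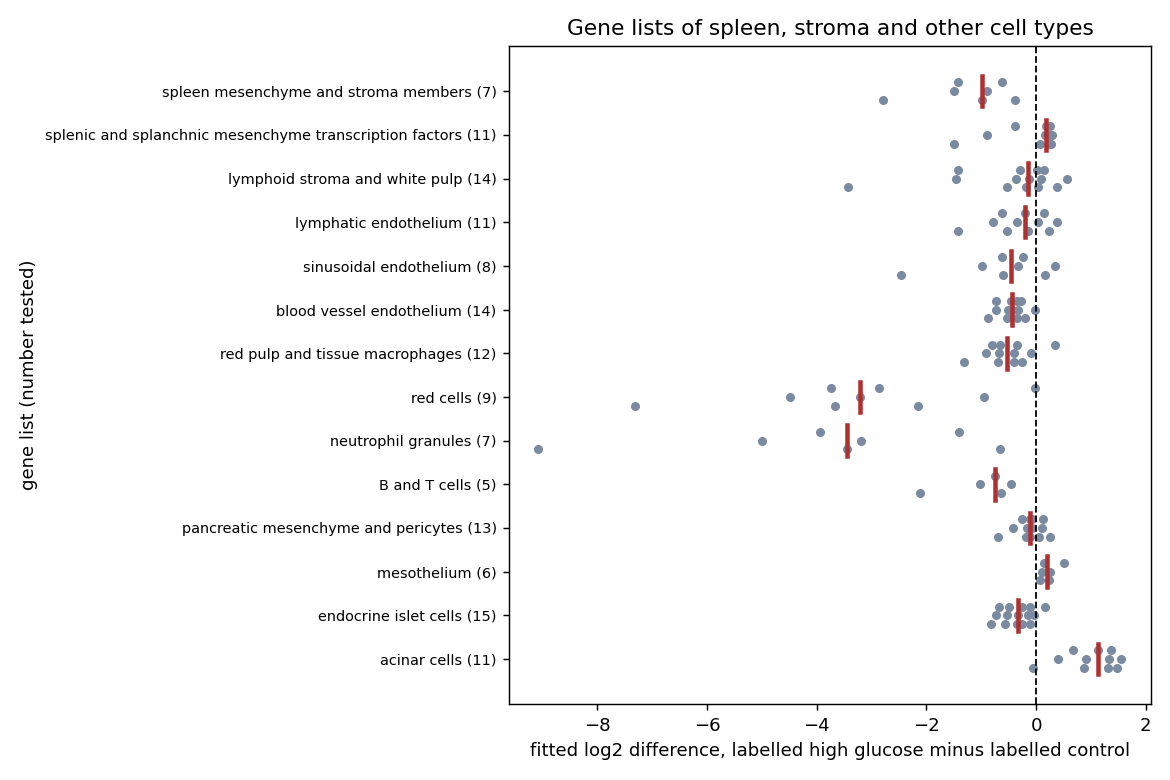
Fitted log2 difference (labelled high glucose minus labelled control) of each tested gene in 14 lists, grey points, with the list median as a red bar and the median of all genes tested as a dashed line. The other mesenchyme factors lie just right of 0, and the red cell and neutrophil lists lie far to the left.

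Summed CPM of epithelial genes differed between the libraries of a dam. The endocrine list (15 genes, median -0.32, 1 lower in all pairs) summed to 15891, 16679 and 28894 CPM in control and 24857, 14836 and 7531 in high glucose, so it was higher in high glucose in pair 1 and lower in pair 3. Its median was 0.25 with pair 3 left out. The acinar list (11 genes, median 1.13, 0 lower in all pairs) summed to 252, 1190 and 43.0 CPM in control and 177, 1814 and 799 in high glucose, and its median was 0.01 with pair 3 left out. The part of these shifts in the results of the 7 genes was not tested.

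Genes of blood cells were also mostly lower in high glucose. Of 9 tested red cell genes 7 were lower in all pairs (median -3.22), and the list summed to 579 to 1793 CPM in control and 217 to 679 in high glucose. Of 7 tested neutrophil genes 5 were lower in all pairs (median -3.44), with sums of 86.5 to 315 against 42.5 to 70.7 CPM. Single genes held much of these sums, so they do not stand for the whole lists. Mmp9 alone measured 74.6 to 78.8 CPM in control and 40.5 to 64.3 in high glucose. Among red cell genes, Tfrc (fitted log2 difference -0.02) measured 43.8 to 199 CPM in control and 74.2 to 152 in high glucose. With pair 1 left out the medians were -2.42 for red cells and -1.95 for neutrophils, and with pair 2 left out -4.60 and -5.28. In pair 2 alone the neutrophil median was -0.41. Each list held 1 of the 2 genes called over all genes, both lower in high glucose. They were Car1 (red cell carbonic anhydrase, edgeR adjusted p = 0.000793) and Np4 (a neutrophil defensin, edgeR adjusted p = 0.000246). Car1 had 7 to 655 counts in control and 0 to 4 in high glucose, and Np4 had 23 to 1206 and 0 to 2. With so few counts in high glucose, both could pass the filter on low counts only through their control libraries. Their adjusted p-values are therefore not read further. Gata1 and Ltf, defining genes of red cell precursors and of neutrophil granules, were listed at 0 in all 6 libraries. The globin genes Hba1 and Hba2 had only 0 to 4 counts beside 2636 to 44950 for Hbb, so a listed 0 need not mean absent RNA.

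Macrophage genes had a median of -0.53 over 12, with 6 lower in all pairs and sums of 1264 to 2025 CPM in control against 743 to 1430 in high glucose. B and T cell genes summed to 10.9 to 48.0 CPM in control and 9.12 to 13.3 in high glucose, with 5 of 12 found genes passing the filter (median -0.74), 1 of them lower in all pairs. Cd4 alone gave 5.63 to 22.9 CPM of these sums in control and 5.39 to 9.62 in high glucose. The part of blood cells or macrophages in the results of the 7 genes was not tested. The control of pair 1 had the highest sums of red cell, neutrophil, macrophage and B and T cell genes, and the highest Shisa3, Ccl19 and Stab2. By CPM it did not have the highest Tlx1, Ccl21 or Lyve1, which peaked in the control of pair 2. By TPM, Ccl21 alone of these still peaked there. The control of pair 1 then had more Tlx1 (14.2 against 10.6) and Lyve1 (26.3 against 24.9) than that of pair 2. With pair 1 left out, the fitted log2 difference of the 7 genes kept its sign in each case, and those of Nkx2-5 and Stab2 were -0.03 and -0.64.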

How the data were processed

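The authors deposited unnormalized counts, obtained per the file headers with featureCounts 1.5.1 from read pairs on the reverse strand (setting 2) at a mapping quality of at least 10, with the rn6 refGene annotation. STAR 2.5 is named in the submitters' processing notes. The treatment comparison used edgeR 4.0.16 under R 4.3.3 (TMM factors, filterByExpr, robust quasi-likelihood F-test, dam pair as a block plus treatment, Benjamini-Hochberg over the 12276 genes kept). CPM used TMM-scaled library sizes, log2 CPM a prior count of 2, and TPM the deposited exon lengths. The code was tested on simulated data. Pairs come from the shared stem of the titles and the series design. The deviations of libraries of the same dam correlated across genes at 0.474, 0.621 and 0.413.

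Members, lists and naming rules were chosen with earlier results of these data known. The rule names the 7 genes, up to 3 called genes per list (otherwise the 3 most abundant for the stromal lists), the 3 nearest genes of each member with a mean count of at least 20, and defining markers at 0. The nearest genes of Tcf21 are not reported here. Of 169 list symbols 156 were found, and the others are not analysed here. Alternatives used DESeq2 1.42.0, limma 3.58.1 (voom), RLE and upper-quartile factors, no filter, no block and leaving out each pair.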

Additional observations from a re-analysis of the deposited data

How the results depend on the processing

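The fitted difference stayed negative for each of the 7 genes in all 10 settings, from -1.56 to -1.37 for Tlx1, -1.62 to -1.24 for Ccl21, -3.51 to -2.11 for Shisa3 and -1.82 to -0.03 for Nkx2-5. The number of genes called over all genes, 2 as reported, was 4 with upper-quartile factors, 18 with no filter, 106 with DESeq2, 1 with voom and 18 to 55 with a pair left out. Without the replicate block 0 genes and 0 of the 7 were called. Of the 7, the call count of 0 became 2 with no filter (Ccl21 and Shisa3), 3 with DESeq2 (Tlx1, Ccl21 and Shisa3) and 1 with any single pair left out (Ccl21 without pair 1 or 3, Shisa3 without pair 2). The median of the 7 ranged from -1.41 to -0.64 with a pair left out. The test between dams called 2795 genes, 216 to 3878 with a pair left out, and 1 to 4 of the 7. The cause of these shifts was not tested. RLE factors gave the same count of calls for treatment (2 genes, 0 of the 7) and 2763 genes between dams, and no scaling moved the median of all genes by 0.1. The values of Stab2 rest on few counts, 6 to 57 per library, and so do those of Shisa3 in pair 3 (27 in control and 4 in high glucose).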
